A study of Mus musculus with 6 samples.

Results

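Actin cytoskeleton genes were examined in RNA sequencing libraries of Treg cells from mice, a class of CD4 T cells that depends on Foxp3 and holds immune responses in check. The set held 10 genes (Actb, Actg1, Pfn1, Cfl1, Tmsb4x, Tmsb10, Coro1a, Capg, Arpc2 and Vim) out of 23992 gene symbols, and all 10 were among the 12720 genes with enough reads to be tested. They were picked by symbol, with earlier results of these data known, so their values and calls describe these genes and are no independent evidence. Where a symbol had several transcript rows the row with the most reads over the 6 libraries was kept. Summed over the libraries, the kept rows held between 37528 reads (Arpc2) and 1377103 reads (Actb). Capg had 4 rows and Tmsb10 had 3. The kept Capg row had 14900, 14436 and 30684 reads in the KO libraries, and the next had 14494, 14085 and 30051. For Tmsb10, the next row differed from the kept one in KO replicate 2 alone (21359 against 21362 reads).

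The study compared 3 libraries labelled KO with 3 labelled WT. KO Treg cells came from CD45.2 mice of genotype Foxp3YFP-Cre/Y with floxed Crlf2 alleles (Crlf2fl/fl), and WT Treg cells from CD45.2 Foxp3YFP-Cre/Y mice with no floxed allele named. The Y marks males. Both groups therefore carried the Cre and YFP of the Foxp3-driven allele, and cells were sorted live as CD4+YFP+ from lymph nodes and spleen that had been pooled. Crlf2 encodes the receptor chain specific for TSLP, an epithelial cytokine, and the title of the series concerns the action of TSLP on Treg cells. Neither the age of the mice nor whether replicates came from separate animals is stated in the labels, so the p-values below measure only the spread between these samples.

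Total counts ran from 9649601 to 18352401 in KO libraries and from 1439736 to 12180569 in WT libraries. Crlf2 averaged 6.44 ± 2.76 CPM (counts scaled to the size of each library) in KO libraries and 114.5 ± 27.7 CPM in WT libraries (SD, n = 3 each). That order fits the sample titles and genotypes, whereas the strain named in each description is that of the other group. Foxp3, the factor that defines Treg cells, ranged over 386 to 489 CPM in KO libraries and 200.1 to 474 CPM in WT libraries. The name of the deposited table mentions lung, and transcripts of airway and alveolar epithelium were present in every library. The 10 lung epithelial markers together made up 0.241% to 1.96% of all reads in the KO libraries and 1.71% to 7.58% in the WT libraries. Erythroid markers took 0.192% to 0.284% in the KO libraries, against 0.171%, 0.686% and 14.5% in WT replicates 1 to 3. Pairs of globin genes had the same or nearly the same counts, and with each pair taken once the shares were 0.0967% to 0.143% in the KO libraries, against 0.0859%, 0.345% and 7.83% in WT replicates 1 to 3. Macrophage and monocyte markers took 0.267% to 0.289% in the KO libraries, against 0.0391%, 0.0805% and 0.748% in WT replicates 1 to 3. No marker of any list was called. WT replicate 3 thus stood apart, and its Treg markers took 0.103% of the counts, against 0.226% to 0.253% in the other 5 libraries. Markers of T cells in general (pan-T) took 0.808%, 0.749% and 0.855% in KO replicates 1 to 3. In WT replicates 1 to 3 they took 0.649%, 0.720% and 0.416%, so every KO library was above every WT library. The part of this difference in the results below was not tested.

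Actin is a globular protein that assembles into filaments and comes apart again, and this turnover drives T cell crawling, shape change and the contact with antigen-presenting cells. Thymosins and profilin bind actin monomers and control their supply, cofilin severs old filaments, the Arp2/3 complex starts new branches, coronin works at those branches, and gelsolin-family proteins such as CapG cap filament ends. Vimentin forms intermediate filaments, a separate polymer of the cytoskeleton. When free actin monomer runs low, the coactivator MRTF enters the nucleus and, with the transcription factor SRF, switches on actin genes through a DNA element named the CArG box.

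The actins Actb and Actg1 and the thymosins Tmsb4x and Tmsb10 are pairs of related genes, and their sequences are shown because the results turn on telling the partners apart. Below are 90 bases of coding sequence from the start codon of Actb and Actg1 and, for the thymosins, from the ATG at the position of the Tmsb10 start codon, with the sequences aligned at their ends without gaps. Capitals mark the positions at which the partners differ, 16 for the actins and 23 for the thymosins. The sequences are from GENCODE M21 transcripts (mm10).
Actb: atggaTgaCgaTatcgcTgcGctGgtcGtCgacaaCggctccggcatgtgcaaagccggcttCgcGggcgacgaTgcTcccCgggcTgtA
Actg1: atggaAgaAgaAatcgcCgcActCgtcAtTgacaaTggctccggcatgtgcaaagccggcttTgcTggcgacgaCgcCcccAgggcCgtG
Tmsb4x: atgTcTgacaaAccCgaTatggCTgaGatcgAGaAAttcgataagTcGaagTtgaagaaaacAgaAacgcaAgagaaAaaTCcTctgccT
Tmsb10: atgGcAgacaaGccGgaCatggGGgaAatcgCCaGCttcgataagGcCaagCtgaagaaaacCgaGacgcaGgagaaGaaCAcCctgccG

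Over the whole coding sequence Actb and Actg1 were identical at 997 of 1125 positions (88.6%). The thymosins were identical at 92 of 132 positions (69.7%). The Tmsb4x coding sequence used had 150 bases, and only its last 132 were compared with Tmsb10. Of all 50-base windows of the Actg1 transcript, 1.58% also occurred in Actb. Windows shared with any other annotated gene made up 56.7% of Actg1, 56.8% of Tmsb10, 20.5% of Cfl1, 14.2% of Actb and 0.216% of Arpc2. None was found for Pfn1, Tmsb4x, Coro1a, Capg or Vim. With windows of 100 bases the shares were 51.1% for Actg1, 24.0% for Tmsb10, 2.29% for Cfl1 and 1.1% for Actb, and none was found for Arpc2. The labels give neither the read length nor how reads that map to several places were counted, so the levels of Actg1 and Tmsb10 in particular are uncertain.

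The 2 non-muscle actin genes and Tmsb10 were called lower in the KO libraries, and no gene of the set was called higher. Actb, which encodes beta-actin, is on chromosome 5 (mm10, 142903115 to 142906754, minus strand). It had 17860, 17710 and 19460 CPM in KO replicates 1 to 3, against 31900, 34230 and 29430 CPM in WT replicates 1 to 3. Every KO library was below every WT library, and the KO libraries lay close together. The fold change, KO over WT, was -0.80 on the log2 scale with an SE of 0.09 (edgeR adjusted p = 0.0098), a ratio of 0.576. By mean CPM, Actb was the most abundant gene of the table, taking 1.90% to 2.03% of all counts in KO and 2.55% to 3.48% in WT.

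Actg1, the gene of gamma-actin, is on chromosome 11 (120345690 to 120348542, minus strand). It had 3198, 3253 and 3600 CPM in KO, against 5241, 5289 and 4406 CPM in WT. The groups did not overlap, and WT replicate 3 was the lowest WT library. On the log2 scale Actg1 fell by 0.57 with an SE of 0.11 (edgeR adjusted p = 0.045). The ratio of the actin genes within each library needs no scaling between libraries. Per kilobase of transcript, Actb had 5.60, 5.46 and 5.42 times the reads of Actg1 in KO, against 6.10, 6.49 and 6.70 times in WT. All KO ratios were below all WT ratios. On the log2 scale the ratio was 2.46 ± 0.02 in KO and 2.68 ± 0.07 in WT (SD, n = 3 each), a difference of -0.23 with an exact two-sided permutation p = 0.1, the smallest that 3 against 3 libraries can give.

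Tmsb10 encodes thymosin beta-10, which holds actin monomers back from filaments. It is on chromosome 6 (72957347 to 72958748, minus strand). It had 1990, 1710 and 1914 CPM in KO, against 2809, 2865 and 2849 CPM in WT. The WT libraries were nearly equal, and every KO library lay below them. On the log2 scale it fell by 0.60 with an SE of 0.10 (edgeR adjusted p = 0.029).

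Tmsb4x, the X-linked gene of thymosin beta-4 (167207093 to 167209315, minus strand), did not pass the test. It had 6002, 5224 and 6211 CPM in KO, against 4784, 5900 and 5149 CPM in WT. The groups overlapped, with WT replicate 2 above KO replicate 2. Its log2 fold change of 0.14 had a 95% interval of -0.12 to 0.40 (edgeR adjusted p = 0.606). It was 0.08 without WT replicate 1, 0.22 without KO replicate 2 and 0.24 without WT replicate 2. The thymosins can also be set against each other within a library. Per kilobase, Tmsb10 had 0.349, 0.344 and 0.324 times the reads of Tmsb4x in KO, against 0.617, 0.511 and 0.582 times in WT. These ratios did not overlap. The log2 ratio was -1.56 ± 0.06 in KO and -0.82 ± 0.14 in WT (SD, n = 3 each), a difference of -0.75 (exact two-sided permutation p = 0.1, the smallest possible).

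**Figure D1:**
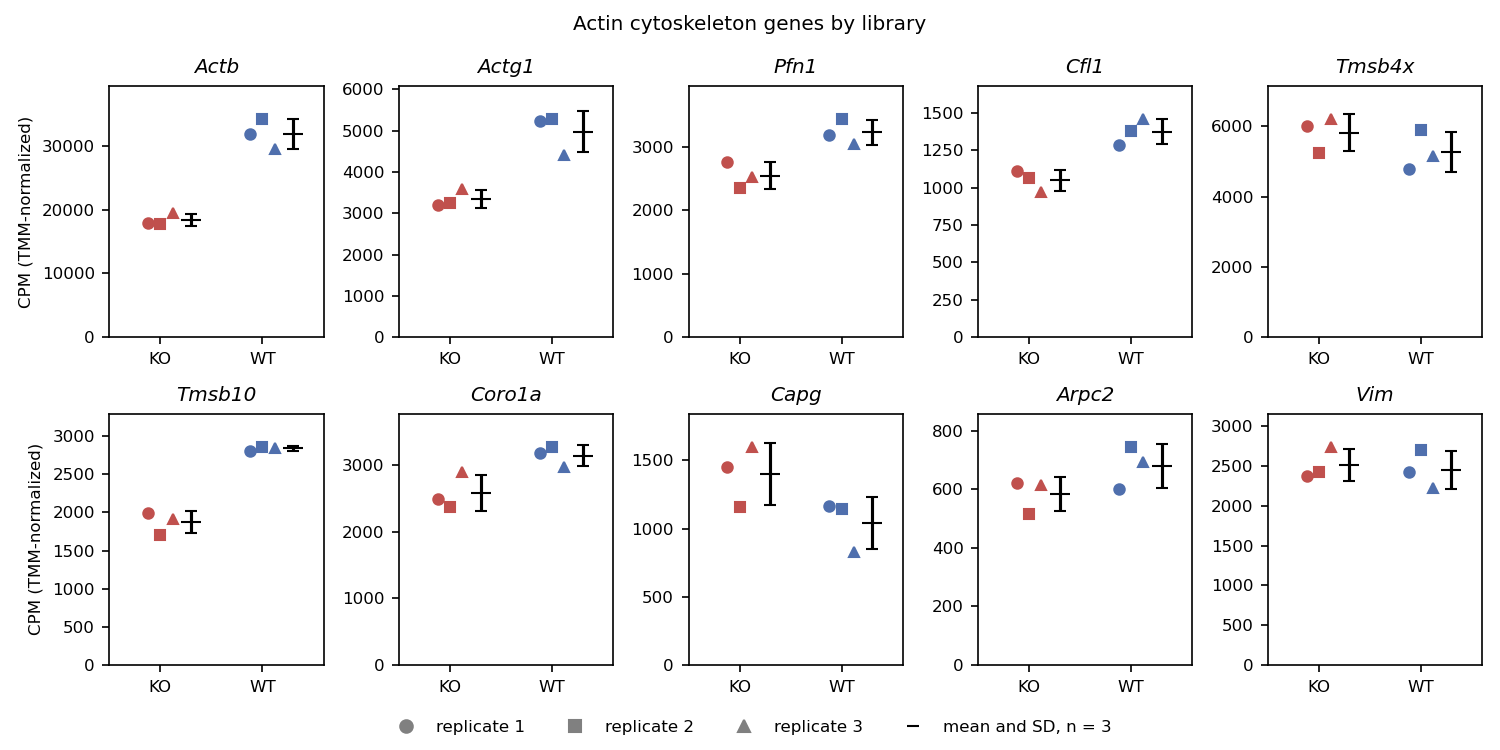
TMM-normalized CPM of the 10 genes in each library, with KO on the left and WT on the right of each panel, a symbol for each replicate number, and the mean and SD of 3 libraries beside them. The KO symbols lie wholly below the WT symbols for Actb, Actg1, Tmsb10, Pfn1, Cfl1 and Coro1a, and the groups overlap for Tmsb4x, Capg, Arpc2 and Vim.

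Of the 10 genes, 3 were called lower in KO and 0 higher by edgeR at an adjusted p under 0.05, where 0.983% of all tested genes were called lower, 0.755% higher and 1.74% in either direction. At an unadjusted p under 0.05, 6 were lower and 1 (Capg) was higher, against 9.13% and 6.74% of all tested genes (15.9% in either direction). DESeq2 and limma-voom also called 0 higher. The median log2 fold change of the 10 genes was -0.31, and that of all tested genes was -0.04. The groups did not overlap for 6 of the 10, all lower in KO, where 11.5% of all tested genes were lower without overlap, 10.4% higher and 22.0% in either direction. A further 184 genes had a mean CPM at or above the 632 CPM of Arpc2, the lowest of the set, and of these 4 were called lower and 6 higher, with a median of -0.05. At an unadjusted p under 0.05 in edgeR, 20 of the 184 were lower and 28 higher. The groups did not overlap for 58 of them, in either direction.

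The number of calls depended on single libraries, while the fold changes moved less. Without WT replicate 3 the same genes, Actb, Actg1 and Tmsb10, were called lower. Without KO replicate 2 only Actb was called. With any of the other 4 libraries left out, edgeR called 0 of the 10. Over all genes, edgeR then called 4 of 13321 without KO replicate 1 and 7 of 13144 without KO replicate 3. It called 33 of 13273 without WT replicate 1 and 22 of 13375 without WT replicate 2. Calls over all genes numbered 124 without KO replicate 2 and 518 without WT replicate 3, against 221 with all 6 libraries. Among the 10 genes, 5 had an unadjusted p under 0.05 in edgeR without KO replicate 1. Without KO replicate 3, WT replicate 1 or WT replicate 2 there were 6. In these 4 cases the edgeR adjusted p of Actb ran from 0.051 without WT replicate 2 to 0.099 without KO replicate 1. When single libraries were left out, the log2 fold change of Actb stayed between -0.72 and -0.85, that of Actg1 between -0.51 and -0.65, and that of Tmsb10 between -0.53 and -0.64. The lung epithelial share was highest in WT replicate 1 and the erythroid share in WT replicate 3. Without the first of these libraries the Actb value was -0.79, and without the other it was -0.85. Leaving out a library does not remove these transcripts from the others, and their part in the results was not tested. In bulk RNA, fewer cells of a type and less RNA per cell cannot be told apart.

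**Figure D2:**
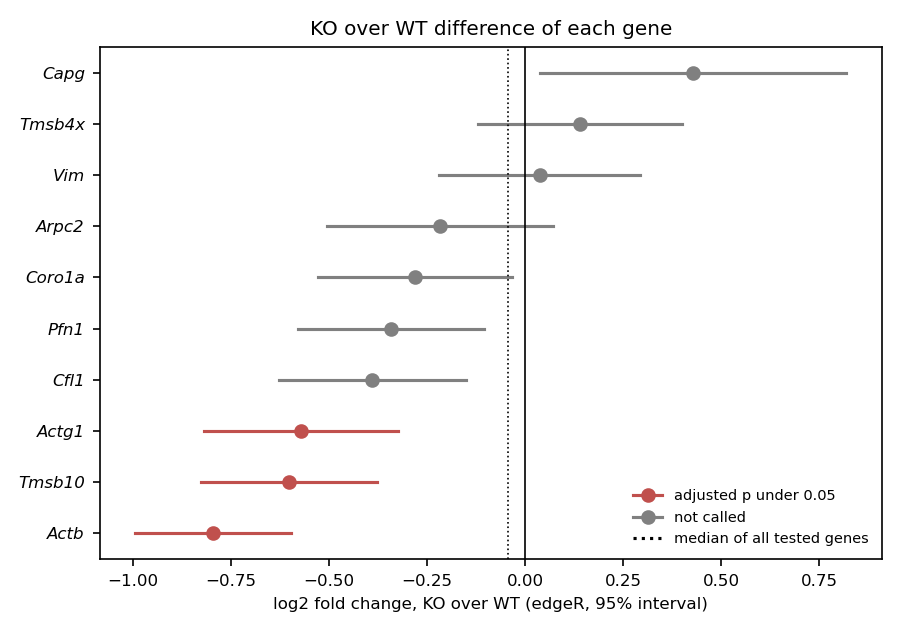
Log2 fold change of each gene, KO over WT, from edgeR with its 95% interval, ordered from high to low, with the median of all 12720 tested genes as a dotted line. Actb, Tmsb10 and Actg1 (red) were called at -0.80, -0.60 and -0.57, and the interval of Vim, -0.22 to 0.29, lies on both sides of 0.

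The proteins that feed and dismantle filaments had smaller negative values that were not called. Pfn1 encodes profilin-1, which loads actin monomers onto growing filament ends (chromosome 11, 70651850 to 70654644, minus strand). It had 2764, 2347 and 2531 CPM in KO, against 3189, 3445 and 3053 CPM in WT. The groups did not overlap, but its log2 fold change of -0.34 (SE 0.10) had an edgeR adjusted p = 0.153. Cfl1 encodes cofilin-1 (chromosome 19, 5490455 to 5495201, plus strand). It had 1110, 1068 and 972.5 CPM in KO, against 1288, 1378 and 1461 CPM in WT. Its groups did not overlap either, and its log2 difference of -0.39 (SE 0.10) had an edgeR adjusted p = 0.117. DESeq2 called both genes lower (adjusted p = 0.0486 for Pfn1 and 0.014 for Cfl1). The ratio of Cfl1 to Pfn1 per kilobase overlapped between the groups, at 0.282 to 0.335 in KO and 0.294 to 0.352 in WT (exact two-sided permutation p = 0.6).

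Coro1a, the coronin of white blood cells, and Arpc2, a core subunit of the Arp2/3 complex, belong to the branched actin network. Coro1a (chromosome 7, 126699773 to 126707787, minus strand) had 2495, 2370 and 2890 CPM in KO, against 3180, 3279 and 2967 CPM in WT. The highest KO library was close to the lowest WT library. Its log2 difference of -0.28 (SE 0.11) had an edgeR adjusted p = 0.254. Arpc2 (chromosome 1, 74236084 to 74268209, plus strand) had 622, 517 and 615 CPM in KO, against 600.3, 746.5 and 693 CPM in WT. These groups overlapped, and the log2 fold change was -0.22 (95% interval -0.51 to 0.07, edgeR adjusted p = 0.453). It was -0.13 without KO replicate 2 and likewise without WT replicate 2.

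Capg had the highest log2 fold change of the set, and it was not called. CapG caps filament ends without severing them and is abundant in macrophages. Its gene lies on chromosome 6 (72544391 to 72562983, plus strand). It had 1451, 1156 and 1602 CPM in KO, against 1163, 1140 and 825 CPM in WT. KO replicate 2 lay just below WT replicate 1, and the groups otherwise stood apart. The log2 fold change was 0.43 (SE 0.17, 95% interval 0.04 to 0.82, edgeR adjusted p = 0.273). Macrophage and monocyte markers took 0.267% to 0.289% in KO, against 0.0391%, 0.0805% and 0.748% in WT replicates 1 to 3. WT replicate 3 had the lowest Capg value, and without that library the log2 fold change was 0.29. The part of macrophage transcripts in the Capg values was not tested.

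Vim, the gene of vimentin (chromosome 2, 13573927 to 13582826, plus strand), had 2368, 2425 and 2744 CPM in KO, against 2423, 2701 and 2224 CPM in WT. The libraries of the groups were interleaved. The log2 fold change of 0.04 had a 95% interval of -0.22 to 0.29 (edgeR adjusted p = 0.908). Vim and Tmsb4x had negative values, -0.26 and -0.18, when 13 pan-T cell genes set the scaling in place of TMM, a scaling that moved the median of all genes to -0.37 and the calls over all genes to 25 higher and 181 lower, against 96 higher and 125 lower with TMM. Vim was also at -0.02 without KO replicate 3 or WT replicate 3, and at most at 0.13 (without WT replicate 2) when 1 library was left out. Under the pan-T scaling Actb, Actg1 and Tmsb10 were still called lower (-1.10, -0.87 and -0.92), no member was called higher, and Capg stayed positive at 0.14.

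Set against Actb within each library, which needs no scaling, Vim, Capg and Arpc2 had higher ratios in every KO library than in any WT library. The ratio of Vim to Actb per kilobase was 0.137, 0.141 and 0.145 in KO, against 0.0782, 0.0813 and 0.0778 in WT. The ratio of Capg to Actb was 0.110, 0.0880 and 0.111 in KO, against 0.0492, 0.0449 and 0.0378 in WT. The ratio of Arpc2 to Actb was 0.0412, 0.0345 and 0.0374 in KO, against 0.0223, 0.0258 and 0.0279 in WT. The Capg ratio stood furthest apart and the Arpc2 ratio least. The log2 differences, KO minus WT, were 0.83 for Vim, 1.23 for Capg and 0.58 for Arpc2, each with an exact two-sided permutation p = 0.1. Adjusted by Benjamini and Hochberg over the 6 ratios computed, 5 had p = 0.12 in this exact permutation test. The 3 ratios share the counts of Actb and are not independent of one another. Actb itself was lower in KO, so a gene without any difference would also have a higher ratio to it in KO.

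**Figure D3:**
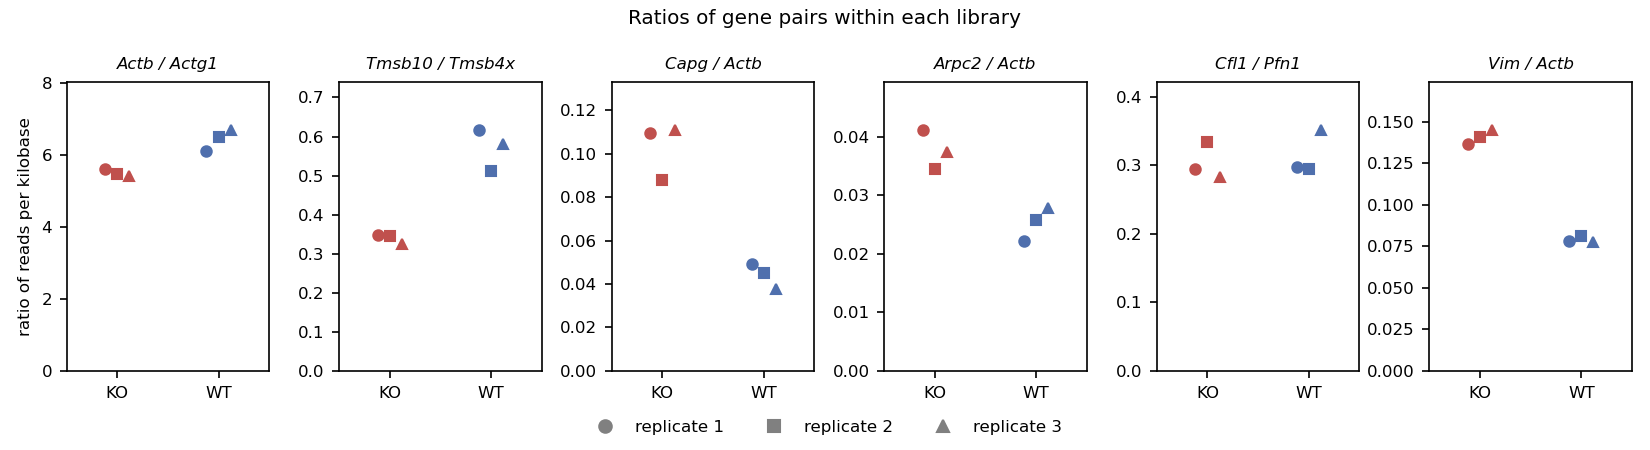
Ratio of reads per kilobase for 6 gene pairs within each library, KO on the left and WT on the right of each panel, a symbol for each replicate number. The ratio of Tmsb10 to Tmsb4x was 0.324 to 0.349 in KO and 0.511 to 0.617 in WT, and only the ratio of Cfl1 to Pfn1 overlapped between the groups.

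Compared per kilobase of transcript, levels (RPKM, the CPM per kilobase) put Actb and Tmsb4x far above the rest in both groups. In KO, Actb had 9711 ± 513 RPKM and Tmsb4x 8675 ± 776.5 RPKM (SD, n = 3), a difference smaller than the sum of their SDs, whereas in WT they were well apart at 16860 ± 1272 and 7878 ± 849 RPKM. Tmsb10 and Pfn1 were level in KO (2938 ± 227.5 and 2928 ± 240.3 RPKM), and in WT Tmsb10 was above Pfn1 (4460 ± 45.7 and 3711 ± 228.5 RPKM). Actg1, Coro1a and Vim followed, each within the sum of the SDs of its neighbour among these 3 in KO, at 1769 ± 115, 1619 ± 170.1 and 1370 ± 110.5 RPKM in KO and 2629 ± 262, 1967 ± 99.8 and 1336 ± 131 RPKM in WT. Cfl1, Capg and Arpc2 closed the order with 887 ± 59.4, 1002 ± 162 and 366 ± 36.8 RPKM in KO, against 1162 ± 73.3, 745 ± 135 and 426 ± 46.3 RPKM in WT. Cfl1 and Capg changed places between the groups, and in KO they did not differ beyond their spread.

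As a likeness between profiles, log2 CPM was centred per gene over the 6 libraries and the root mean square difference taken. Among the 45 pairs of members, Pfn1 and Coro1a were most alike (0.10), followed by Tmsb4x and Vim (0.11). Actb, Actg1 and Tmsb10 lay at 0.12 to 0.13 from one another, and Actb and Capg were least alike (0.63). Outside the set and among genes of at least 20 CPM, the profiles near the mean of the 10 genes included those of Sbds (0.038), Coa5 (0.041), Tet2 (0.048) and Mrpl42 (0.050), none of them called. Every library of a group is part of these distances, so they also carry the difference between the groups.

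Of 131 other symbols listed with the actin cytoskeleton, in 14 roles, 118 were tested. The roles include intermediate filaments, a separate polymer, whose 6 tested genes are counted here and below. edgeR called 2 lower in KO, Acta1 and Actr3, and 1 higher, Inf2, where 0.983% and 0.755% of all tested genes were called. Log2 fold changes were below 0 for 80 of the 118, and for 6897 of all 12720 tested genes. Their median was -0.15, against -0.04 for all tested genes. At an unadjusted p under 0.05, 23 of the 118 were lower and 5 higher, where 9.13% of all tested genes were lower and 6.74% higher. The intermediate filament role held 1 of these 23 and 3 of these 5.

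Actr3 encodes the Arp3 subunit, which with Arp2 forms the nucleating core of the Arp2/3 complex. It had 454.5, 389 and 463 CPM in KO, against 608, 690.4 and 646 CPM in WT, and the groups did not overlap. Actr3 fell by 0.57 on the log2 scale with an SE of 0.11 (edgeR adjusted p = 0.0489). Besides Arpc2, 8 Arp2/3 subunit genes were tested, Actr3 included, and 7 had negative values, among them Actr2 at -0.35 and Arpc3 at -0.01. Arpc1b was at 0.13. Inf2, a formin that both builds and severs filaments, had 141, 169.9 and 171.5 CPM in KO, against 89.2, 103 and 74.35 CPM in WT. All KO libraries were above all WT libraries, and Inf2 rose by 0.87 on the log2 scale with an SE of 0.16 (edgeR adjusted p = 0.0425).

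Acta1, the skeletal muscle actin, had 120.2, 139 and 143 CPM in KO, against 232, 281 and 208 CPM in WT. The groups did not overlap, and Acta1 fell by 0.84 on the log2 scale with an SE of 0.15 (edgeR adjusted p = 0.0377). Of its 50-base windows, 2.00% also occurred in Actb, and of its 100-base windows 0 did. Actb averaged 18340 CPM in KO and 31850 CPM in WT, against 134 and 240 CPM for Acta1. A small share of Actb reads counted for Acta1 would therefore weigh heavily on its values. Whether the Acta1 counts hold such reads was not tested. The smooth muscle actin genes Actg2 and Acta2 were not called and had 6.08 ± 2.14 and 6.20 ± 0.99 CPM in KO and 25.5 ± 15.8 and 11.1 ± 2.65 CPM in WT. Markers of fibroblasts and smooth muscle together took at most 0.00121% of the counts in KO and 0.00395% in WT, and those of platelets, which are rich in beta-actin and thymosin beta-4, at most 0.000583% in KO and 0.00193% in WT. Ppbp, a platelet marker, had 0 reads in 5 libraries and 20 in WT replicate 3.

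The calls of these 3 genes also depended on single libraries. Without WT replicate 3 all were called, with log2 fold changes of -0.93 for Acta1, -0.57 for Actr3 and 0.76 for Inf2. Without any other single library none of the 3 was called. Their log2 fold changes then ran from -0.70 to -0.88 for Acta1, -0.49 to -0.61 for Actr3 and 0.83 to 1.00 for Inf2. In those cases edgeR called only 4 to 124 genes over all tested genes, against 221 with all 6 libraries. When the libraries were scaled to pan-T genes, Acta1 was called and Actr3 (adjusted p = 0.052 in edgeR) and Inf2 (adjusted p = 0.178 in edgeR) were not.

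No other role held a called gene. Among monomer-binding genes, Twf2 had 318 ± 26 CPM in KO and 274 ± 14.9 CPM in WT, and Cap1 had 357 ± 49.6 CPM in KO, against 382 ± 43.1 CPM in WT (SD, n = 3 each). Wdr1, a partner of cofilin in filament turnover, had 675 ± 55.7 CPM in KO and 774.5 ± 59.9 CPM in WT, and Gmfg had 199 ± 17.1 CPM in KO and 187 ± 27.3 CPM in WT. The capping protein subunits Capzb, Capza1 and Capza2 had negative values, with Capzb at 551 ± 36.0 CPM in KO libraries, against 687 ± 31.6 CPM in WT libraries (log2 fold change -0.32, edgeR adjusted p = 0.172) Capza1 at -0.34 and Capza2 at -0.74 (edgeR adjusted p = 0.117). All 4 coronins other than Coro1a were below 0 as well, among them Coro7 at -0.17 and Coro1b at -0.03.

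Among regulators of branching, contraction and anchorage, Hcls1, a cortactin relative of blood cells, was at 0.20 and Brk1, a WAVE complex subunit, at 0.00 on the log2 scale. The myosin light chain genes Myl6 and Myl12b were at -0.06 and 0.00. Cnn2 (calponin-2), at -0.32, and Msn (moesin, which ties actin to the membrane), at -0.28, had an unadjusted p under 0.05 in edgeR, whereas Tagln2 at 0.09 and Fermt3 at -0.11 did not. The lamin genes Lmnb1 and Lmna were at 0.49 and 0.41 (edgeR adjusted p = 0.129 and 0.241), Lmnb2 was at -0.15, and none was called. Of the 6 genes tested in the intermediate filament role, 3 were above 0 and 3 below, the keratin genes Krt18 and Krt8 at -1.51 and -1.08 among them. The role includes Plec, the gene of the linker protein plectin and not of a filament protein, at 0.46 (edgeR adjusted p = 0.081). Both keratin genes were highest in WT replicate 1 and lowest in KO replicate 3. These libraries also had the highest and the lowest lung epithelial share (7.58% and 0.241%), and a link was not tested.

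**Figure D4:**
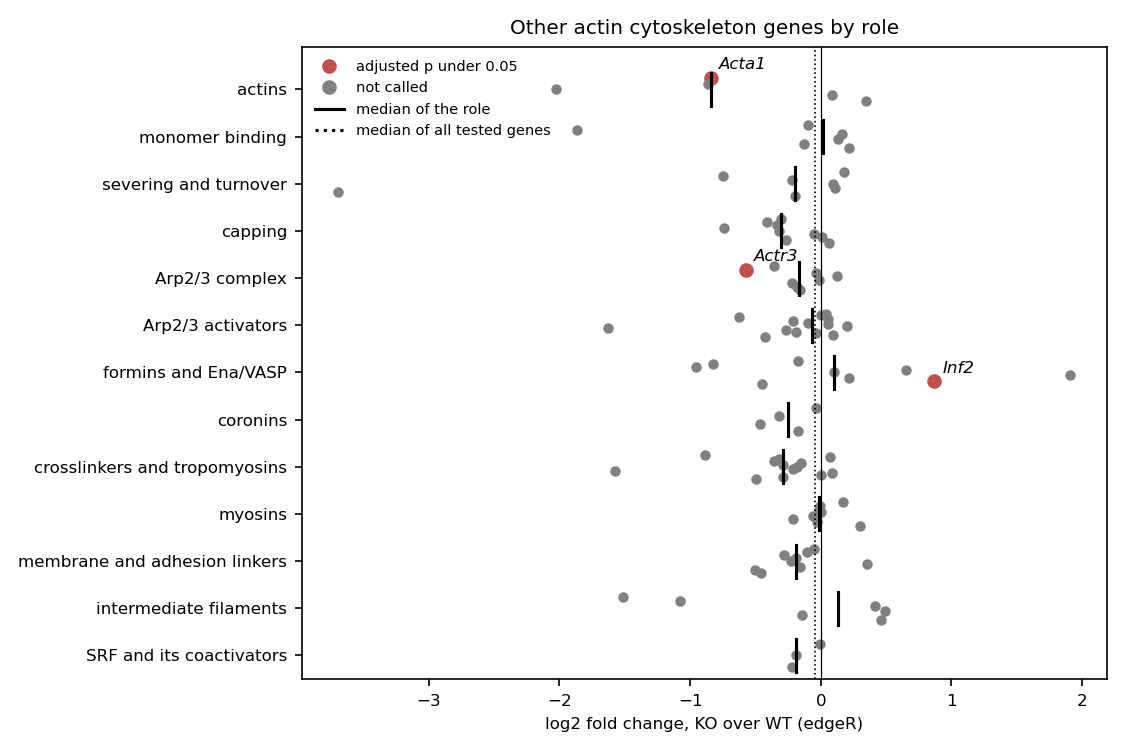
Log2 fold change, KO over WT, of 101 other actin cytoskeleton genes in 13 of the roles, intermediate filaments among them. Bars mark the median of each role, and a dotted line marks the median of all tested genes. Acta1 and Actr3 (lower) and Inf2 (higher) were called, and most points lie left of 0.

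Srf itself had 51.9 ± 9.57 CPM in KO and 60.3 ± 13.2 CPM in WT (log2 fold change -0.22, edgeR adjusted p = 0.673). Mkl1, the older symbol of its coactivator MRTF-A, had 166 ± 22.4 CPM in KO and 166 ± 15.2 CPM in WT. Both differences were within the spread between replicates. The 250 bases before the RefSeq start sites of 9 of the 10 genes, all but Actb (12 windows, GRCm38.p6), were searched on both strands for the CArG box. It was found in 1 window, that of Actg1, where it starts 90 bases before the transcription start, and it occurred in 1.47% of all 32851 promoter windows of this length. The Actg1 window, chr11:120348496-120348745 on the minus strand, is shown with the box in capitals.
Actg1 promoter: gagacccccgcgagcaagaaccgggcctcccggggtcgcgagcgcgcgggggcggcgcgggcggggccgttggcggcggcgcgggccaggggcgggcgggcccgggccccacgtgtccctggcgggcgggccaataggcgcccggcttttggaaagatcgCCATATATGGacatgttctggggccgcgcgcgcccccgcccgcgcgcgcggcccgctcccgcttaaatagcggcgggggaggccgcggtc

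The window of Actg1 also held CCAAT, as did 33.8% of all windows, and GGGCGG on either strand, as did 32.7%. Among the other 8 members searched, CCAAT was found for Cfl1 and Vim, TATAAA for Vim (12.4% of all windows), and GGGCGG for Pfn1, Tmsb4x, Tmsb10, Coro1a and Arpc2. The motifs did not overlap the CArG box. A match is a run of letters and not a measured binding site.

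**Figure D5:**
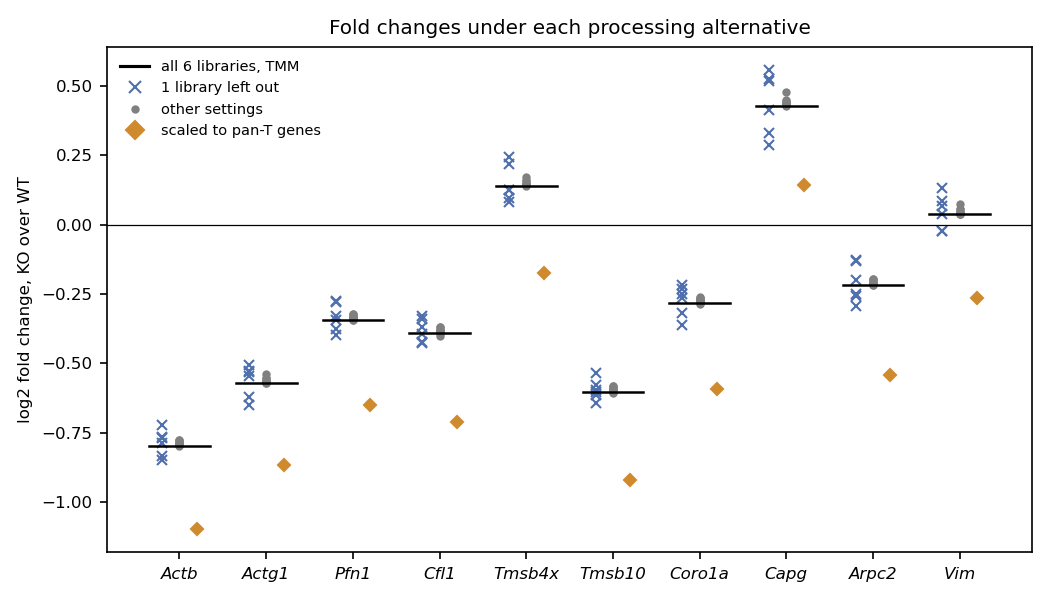
Log2 fold change of each gene, KO over WT, with all 6 libraries and TMM scaling (bar), with 1 library left out (crosses), scaled to pan-T genes (diamonds) and under the other settings (dots). Actb, Actg1, Tmsb10, Pfn1, Cfl1, Coro1a and Arpc2 stayed below 0 under all 16 alternatives, and Tmsb4x and Vim lie on both sides of 0.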

How the data were processed

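The deposited table, judged from its headers and whole-number values, holds unnormalized counts for 31682 RefSeq transcripts, each with its length. The submitters' processing notes name TopHat2 2.2.1, Bowtie2 2.2.6, bcl2fastq and the mm10 build. No source used here names the counting program, strand setting or treatment of multi-mapped reads, so reads of overlapping or near-identical genes may be shared.

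For each symbol the row with the most reads was kept. Genes were filtered by filterByExpr, with a minimum count of 10, taken as a CPM cutoff to be met in at least 3 libraries. The minimum total count was 15. After TMM scaling, the robust quasi-likelihood F-test of edgeR 4.0.16 in R 4.3.3 set KO against WT over 12720 genes. A call is a Benjamini-Hochberg adjusted p under 0.05. SE is the absolute log2 fold change over the square root of F. RPKM was computed from CPM and the listed length, and ratios within libraries were tested by exact permutation. Alternatives were other scalings, DESeq2 1.42.0, limma 3.58.1 (voom), other filters and rows, a replicate block and leaving out each library.

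The members and lists were chosen with earlier results of these data known. Named besides the members were Crlf2, Foxp3, up to 3 called genes of smallest p per role (otherwise the 2 of highest RPKM) and the 5 genes nearest in profile. Among these, 1 near gene and 1 role are not reported here. Actg2, Acta2, Actr2, Arpc1b, Arpc3, Capza2, Lmnb2, Plec, Krt18, Krt8 and Ppbp were named after their values were seen.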

Additional observations from a re-analysis of the deposited data

How the results depend on the processing

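Actb was called lower in 12 of 16 alternatives, Tmsb10 in 9 and Actg1 in 8, and their direction held in all 16. Genes of the set called lower numbered 5 with DESeq2, 1 without robust estimation and 1 with the replicate block, and 0 to 3 when 1 library was left out. No alternative called a member higher. The median log2 fold change of the set was -0.62 when scaled to pan-T genes, where 25 genes were called higher and 181 lower in all, against 96 and 125 with TMM. Over all genes the calls numbered 863 with DESeq2, 357 with limma-voom, 134 with rows summed per symbol and 123 with the replicate block, against 221, and 4 to 518 when 1 library was left out (WT replicate 3 giving the most). The other actin cytoskeleton genes called higher numbered 3 with DESeq2, 2 with limma-voom, 0 when scaled to pan-T genes, without robust estimation, with summed rows or with the block, and 0 to 3 when 1 library was left out. Those called lower numbered 9 with DESeq2, 4 with limma-voom, 1 with upper-quartile scaling, DESeq2 size factors, pan-T scaling, no robust estimation or no filter, 0 with summed rows or the block, and 0 to 5 when 1 library was left out. The cause was not tested. Libraries of the same replicate number did not deviate together (correlations of 0.09, -0.15 and -0.04). With so few libraries this cannot show whether the samples were paired. The block kept only Actb called. WT replicate 2, with 1439736 counts, limits the precision for low genes.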
